A study of Mus musculus with 6 samples.

Results

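The inflammatory secretory genes of adipocytes were examined through 10 genes, Hp, Saa3, Lcn2, C3, Ccl2, Ccl7, Cxcl1, Cxcl5, Il6 and Nfkbia. These genes were taken by name from the 45706 rows of a gene count table. RNA sequencing had been carried out on day 7 of differentiation in 3T3-L1 cells, mouse fibroblasts that turn into fat cells when given adipogenic hormones. The 3 samples of the scrambled control group (labelled WT) expressed a scrambled shRNA, and the 3 samples of the RBMS1 knockdown group (labelled RBMS1KD) expressed an shRNA against the RNA-binding protein RBMS1. Both groups had been infected with lentivirus, selected with puromycin and differentiated with the same cocktail of IBMX, insulin, dexamethasone and rosiglitazone, so that a glucocorticoid and a PPARG agonist were given to every sample. The comparison asks how lowering Rbms1 mRNA changed the transcripts of the differentiated cells.

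Fat cells secrete more than lipids and hormones. Adipocytes release acute-phase proteins, the plasma proteins whose production rises in inflammation, together with complement components and chemokines that draw monocytes and neutrophils into fat tissue. Many of these genes are switched on by NF-kB, a transcription factor that is held in the cytoplasm by the inhibitor encoded by Nfkbia, and by C/EBP factors and STAT3, which act downstream of cytokines of the IL-6 family.

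The genes lie on 7 chromosomes (GENCODE M21, GRCm38). Ccl2 (ENSMUSG00000035385, chr11:82035571-82037453) and Ccl7 (ENSMUSG00000035373, chr11:82045712-82047525) are neighbours with 8.26 kb between them. Cxcl5 (ENSMUSG00000029371, chr5:90759360-90761624) and Cxcl1 (ENSMUSG00000029380, chr5:90891241-90893115) lie 129.6 kb apart, and Il6 (ENSMUSG00000025746, chr5:30013114-30019981) is on the same chromosome. Hp (ENSMUSG00000031722) is at chr8:109575128-109579172, C3 (ENSMUSG00000024164) at chr17:57203970-57228136 and Nfkbia (ENSMUSG00000021025) at chr12:55489410-55492647. Lcn2 (ENSMUSG00000026822) is at chr2:32384633-32388252 and Saa3 (ENSMUSG00000040026) at chr7:46711998-46715700. Ccl2 overlaps Gm17268 on the opposite strand and C3 contains Mir6978, and both of those genes were at 0 counts in all 6 samples.

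Promoter sequence (RefSeq, GRCm38.p6) was held for 6 of the 10 genes, namely Lcn2, Il6, Cxcl1, Saa3, Nfkbia and C3. Windows of 300 bases, from 250 before to 50 after the start of transcription, were searched on both strands for the NF-kB consensus, for the C/EBP core TTGCNNAA and for the AP-1 site TGANTCA. The NF-kB consensus was found in 3 of the 6 windows (Il6, Cxcl1 and Nfkbia), against 4.51% of 32851 promoters of the same length. The C/EBP core was found in 4 of the 6 (Lcn2, Il6, Saa3 and C3), against 10.8% of promoters, and the AP-1 site in 1 of the 6 (Il6), against 7.81%. A match of letters is not evidence of binding. The 150 bases just before the start are shown for 4 genes, because these genes span the inhibitor, a chemokine, the cytokine and the complement gene whose levels are described below. They are written 5′ to 3′ on the strand of the gene, with NF-kB and C/EBP matches in capitals. The windows are chr12:55492648-55492797 (minus strand) for Nfkbia, chr5:90891095-90891244 (plus strand) for Cxcl1, chr5:30012964-30013113 (plus strand) for Il6 and chr17:57228137-57228286 (minus strand) for C3.
Nfkbia: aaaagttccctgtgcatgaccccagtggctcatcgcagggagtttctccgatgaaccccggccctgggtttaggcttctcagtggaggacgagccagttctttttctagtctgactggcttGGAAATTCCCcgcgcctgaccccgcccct
Cxcl1: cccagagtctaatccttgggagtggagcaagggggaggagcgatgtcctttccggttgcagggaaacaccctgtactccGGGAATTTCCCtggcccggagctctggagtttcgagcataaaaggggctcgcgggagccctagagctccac
Il6: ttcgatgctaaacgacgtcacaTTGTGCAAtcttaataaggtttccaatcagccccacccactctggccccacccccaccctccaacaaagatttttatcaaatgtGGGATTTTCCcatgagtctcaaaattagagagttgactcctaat
C3: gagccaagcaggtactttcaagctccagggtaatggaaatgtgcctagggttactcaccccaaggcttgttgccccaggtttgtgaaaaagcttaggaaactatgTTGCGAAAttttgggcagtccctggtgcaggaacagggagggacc
The NF-kB match begins 29 bases before the start in Nfkbia and 44 bases before it in Il6, and the capitals of Cxcl1 hold 2 overlapping matches, at 71 and 70 bases. The C/EBP match of C3 begins 45 bases before the start and that of Il6 128 bases before it.

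Library depth was modest and uneven, and the shallowest library was a control. Total estimated counts were 3142695 to 5985167 in the control samples and 6173305 to 11073098 in the knockdown samples, and values are given as CPM, counts scaled to a common library size after correction by trimmed mean of M values (TMM). In control 2, transcripts derived from ribosomal RNA took 43.0% of the counts, against 8.12% to 17.8% in the other libraries. Rbms1 itself was at 113, 102 and 99.6 CPM in control 1, 2 and 3 and at 49.2, 61.4 and 84.0 CPM in knockdown 1, 2 and 3, so every knockdown library was below every control library, by the smallest margin in knockdown 3. Its log2 fold change was −0.69 (SE 0.20), and the adjusted p was 0.185 (edgeR, quasi-likelihood F-test, p-values adjusted after Benjamini and Hochberg), short of the threshold of 0.1. Adipoq, the adipokine that marks fat cells, was at 2109 to 2649 CPM in the controls and 1056 to 2493 CPM in the knockdown samples, and Fabp4 at 2386 to 4203 CPM and 2127 to 2527 CPM. Macrophages, the main source of many of these cytokines in fat tissue, left almost no trace in the libraries: Ptprc and Adgre1 were at 0 in all 6, Csf1r had at most 4 counts, and the 15 macrophage and leukocyte markers summed to 2.24 to 8.44 CPM in the controls and 3.59 to 6.78 CPM in the knockdown samples.

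The 10 genes spanned from a major transcript to one near the limit of detection. Per kilobase of exon, C3 stood highest in control cells with a mean of 1404 CPM per kb, followed by Hp at 398, Nfkbia at 25.5, Cxcl1 at 15.7, Ccl7 at 9.42, Ccl2 at 4.73, Lcn2 at 4.60 and Cxcl5 at 1.88 CPM per kb. Saa3 was at 0.043 CPM per kb and Il6 at 0. In the control samples the ranges of C3, Hp and Nfkbia were each separate from the next gene in this order, whereas from Cxcl1 down to Cxcl5 neighbouring ranges overlapped. The order in knockdown cells was the same except that Lcn2, at 5.47 CPM per kb, stood above Ccl2, at 4.23 CPM per kb, and these neighbours did not differ beyond their spread in either group.

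Of the 10 genes, 8 passed the filter on low counts and were tested, while Saa3 and Il6 did not pass it. Of these 8, 1 was called at an adjusted p of 0.1 or less, Hp, which was lower in the knockdown samples. Over the 11440 genes tested, 1.22% were called and 0.909% were called lower. The balance of calls over all genes depended on the scaling, with 36 higher and 104 lower after TMM and 84 higher and 42 lower with library size alone. The control and knockdown values did not overlap for 3 genes, Hp, C3 and Nfkbia, all lower in the knockdown samples, against 9.55% of all tested genes that were separated in that direction. In 7 of the 8 genes the log2 fold change was below 0, as it was in 49.6% of all tested genes, and the median over the 8 was −0.46 beside 0.004 over all tested genes. With library size alone, which moved the median of all tested genes to 0.37, Ccl2, Ccl7 and Cxcl5 joined Lcn2 above 0, at 0.14, 0.081 and 0.057. Cxcl5 was at the filter's level in all 3 libraries of the control group only, and Ccl2 in all 3 of neither group. In bulk RNA, fewer cells of a type and less RNA per cell cannot be told apart.

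**Figure D1:**
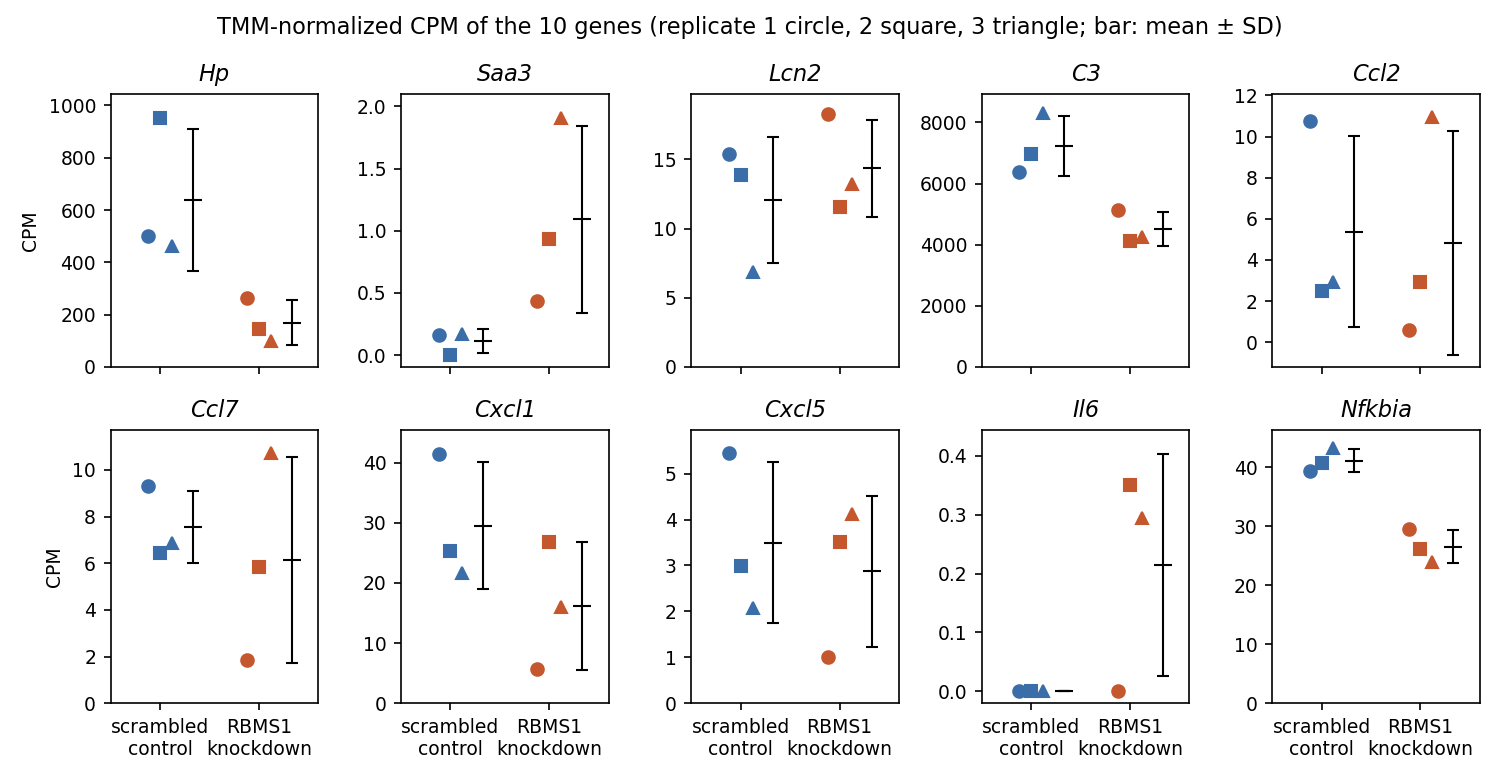
TMM-scaled CPM (vertical axes, 1 scale per gene) of the 10 genes in the scrambled control (blue) and RBMS1 knockdown (orange) samples, with circles, squares and triangles for replicates 1, 2 and 3 and black bars for the mean ± SD (n = 3). The groups are separate for Hp, C3 and Nfkbia, while knockdown 1 is the lowest of all 6 samples for Ccl2, Ccl7, Cxcl1 and Cxcl5.

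Hp encodes haptoglobin, the acute-phase plasma protein that binds free hemoglobin and that fat cells as well as liver secrete. Hp was at 500.3, 952 and 463 CPM in control 1, 2 and 3 and at 266, 145 and 98.1 CPM in knockdown 1, 2 and 3. The lowest control sample was above the highest knockdown sample, and control 2, the library rich in ribosomal RNA, was far above the other controls. The mean was 638 ± 272 CPM in control and 169 ± 86.4 CPM in knockdown cells (SD, n = 3), a ratio of means of 3.77. Its log2 fold change was −1.91 (SE 0.39, 95% interval −2.79 to −1.04), and the adjusted p from edgeR was 0.0842. The call was lost without any single control, at adjusted p of 0.162, 0.300 and 0.197 without control 1, 2 and 3, and also without knockdown 2 (0.276) or knockdown 3 (0.107), whereas it was 0.00673 without knockdown 1. The log2 fold change stayed between −2.39 and −1.45 under all 18 alternatives.

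Hp lies on chromosome 8, where most tested genes had a log2 fold change below 0. Of the 624 tested genes of that chromosome, 562 (90.1%) had a log2 fold change below 0 and their median was −0.38, against 47.3% and a median of 0.02 for the 10778 tested genes placed on other chromosomes. Hp was far below the median of chromosome 8. A lower log2 fold change than that of Hp was found in 9 of the 624 genes of chromosome 8 and in 58 of the 10778 on other chromosomes. With the median deviation of each chromosome removed from each sample, the log2 fold change of Hp was −1.51 and its adjusted p 0.174.

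**Figure D2:**
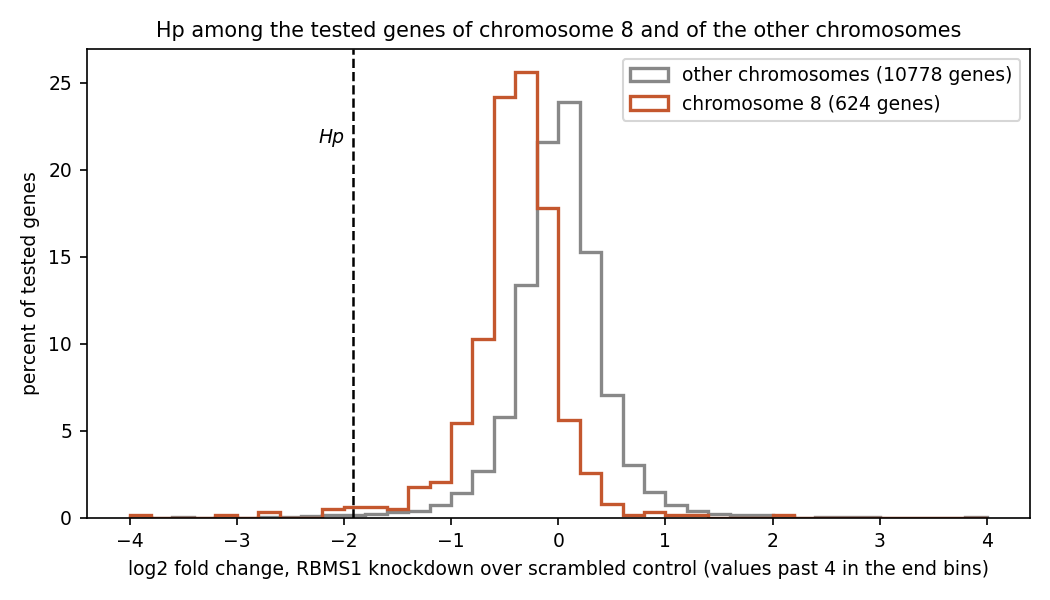
Distribution of log2 fold changes (horizontal axis, RBMS1 knockdown over scrambled control) as a percent of tested genes (vertical axis) for chromosome 8 (orange, 624 genes) and the other chromosomes (grey, 10778 genes), with Hp as a dashed line. The chromosome 8 curve is shifted to the left, with a median of −0.38 against 0.02, and Hp at −1.91 lies in its lower tail.

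Saa3 encodes serum amyloid A3, the serum amyloid that is made outside the liver. It had 1, 0 and 1 counts in the controls and 3, 8 and 26 counts in knockdown 1, 2 and 3. The knockdown libraries were each above the controls in CPM, at 0.431, 0.935 and 1.91 against 0.160, 0 and 0.172 CPM, but all control values and that of knockdown 1 were at or under the level of 3 counts in their own library. Summed over libraries the counts were 2 and 37, a depth-adjusted ratio of 8.93 (exact binomial 95% interval 2.30 to 76.5), which covers counting error only and compares these libraries, not the conditions. Without the filter on low counts, edgeR gave Saa3 an unadjusted p of 0.0124 and an adjusted p of 0.306. DESeq2 gave 0.0456 and 0.470. The serum amyloid genes are a family of related sequences, and the assignment of reads among them was not tested. Saa1 had 0 counts in every control and 2, 2 and 6 counts in knockdown 1, 2 and 3, Saa2 had 3, 1 and 1 against 2, 9 and 4 counts, and Saa4 had 1 count in control 3 alone.

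Lcn2 encodes lipocalin 2, which binds bacterial siderophores. Lcn2 was at 15.4, 13.9 and 6.88 CPM in control 1, 2 and 3 and at 18.3, 11.6 and 13.2 CPM in knockdown 1, 2 and 3. The groups overlapped, with the lowest value in control 3 and the highest in knockdown 1. The log2 fold change was 0.26 (SE 0.32, 95% interval −0.47 to 0.99), with an adjusted p of 0.800 (edgeR), and it was −0.03 without control 3. Unlike the other 7 tested genes, Lcn2 thus had a value above 0.

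C3 encodes the central component of complement, from which the acylation-stimulating protein of fat cells is also derived. C3 was at 6383, 6979 and 8304 CPM in control 1, 2 and 3 and at 5146, 4127 and 4264 CPM in knockdown 1, 2 and 3. All control values were above all knockdown values, with a mean of 7222 ± 983 CPM against 4512 ± 553 CPM (SD, n = 3). The log2 fold change was −0.68 (SE 0.31, 95% interval −1.39 to 0.03), with an adjusted p of 0.420 by edgeR. DESeq2 gave a log2 fold change of −0.66 and an adjusted p of 0.0149, so that the call for C3 depended on the tool. DESeq2 called 2 of the 10 genes, Hp and C3, and 3.2% of the 13454 genes it tested. The adjusted p ranged from 0.0149 to 0.697 over the 18 alternatives. With library size alone, without TMM factors, it had a log2 fold change of −0.30.

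The 4 chemokines divide into Ccl2 (MCP-1) and Ccl7 (MCP-3), which attract monocytes, and Cxcl1 and Cxcl5, which attract neutrophils. Ccl2 was at 10.7, 2.48 and 2.92 CPM in control 1, 2 and 3 and at 0.575, 2.92 and 10.9 CPM in knockdown 1, 2 and 3. The knockdown samples alone covered a 19.0-fold range, on both sides of the controls. The log2 fold change was −0.19 (SE 0.84, 95% interval −2.08 to 1.70) and the adjusted p 0.953 (edgeR), an interval that leaves room for a change of either sign.

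Ccl7 followed a similar course, at 9.30, 6.45 and 6.88 CPM in the controls and 1.87, 5.84 and 10.7 CPM in the knockdown samples. Knockdown 1 was below and knockdown 3 above every control. Its log2 fold change was −0.29 (SE 0.51, 95% interval −1.44 to 0.87), with an adjusted p of 0.869 (edgeR).

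Cxcl1 was the most abundant of the 4, at 41.5, 25.3 and 21.7 CPM in control 1, 2 and 3 and at 5.61, 26.9 and 16.0 CPM in knockdown 1, 2 and 3. Knockdown 2 lay above 2 of the controls, so the groups overlapped, although control 1 was highest and knockdown 1 lowest. The mean was 29.5 ± 10.6 CPM against 16.2 ± 10.6 CPM (SD, n = 3), with a log2 fold change of −0.87 (SE 0.47, 95% interval −1.93 to 0.19) and an adjusted p of 0.496 (edgeR). Cxcl5 was at 5.45, 2.98 and 2.06 CPM in the controls and at 1.01, 3.51 and 4.11 CPM in the knockdown samples, with a log2 fold change of −0.28 (SE 0.57, 95% interval −1.56 to 0.9995) and an adjusted p of 0.887 (edgeR). The counts behind Cxcl5 and Ccl2 were small, with 6 and 5 counts in control 2 and 7 and 4 in knockdown 1.

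Across the 4 chemokines, the same samples tended to stand high or low. Control 1 was the highest control for all 4 genes, and knockdown 1 was the lowest of the 6 samples for all 4. Knockdown 3 was the highest of its group for Ccl2, Ccl7 and Cxcl5, but for Cxcl1 the highest was knockdown 2. Within the knockdown group the highest value was 4.80 times the lowest for Cxcl1, 5.74 times for Ccl7 and 4.09 times for Cxcl5, and the corresponding ratios were 2.71 for Hp, 1.58 for Lcn2, 1.25 for C3 and 1.23 for Nfkbia. Without knockdown 1, the log2 fold changes of Ccl2, Ccl7 and Cxcl5 were above 0, at 0.32, 0.14 and 0.10. Those of Ccl2 and Cxcl5 were also above 0 without control 1, at 0.86 and 0.29, and that of Ccl2 without knockdown 2, at 0.088. The part of other properties of these libraries in these values was not tested.

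**Figure D3:**
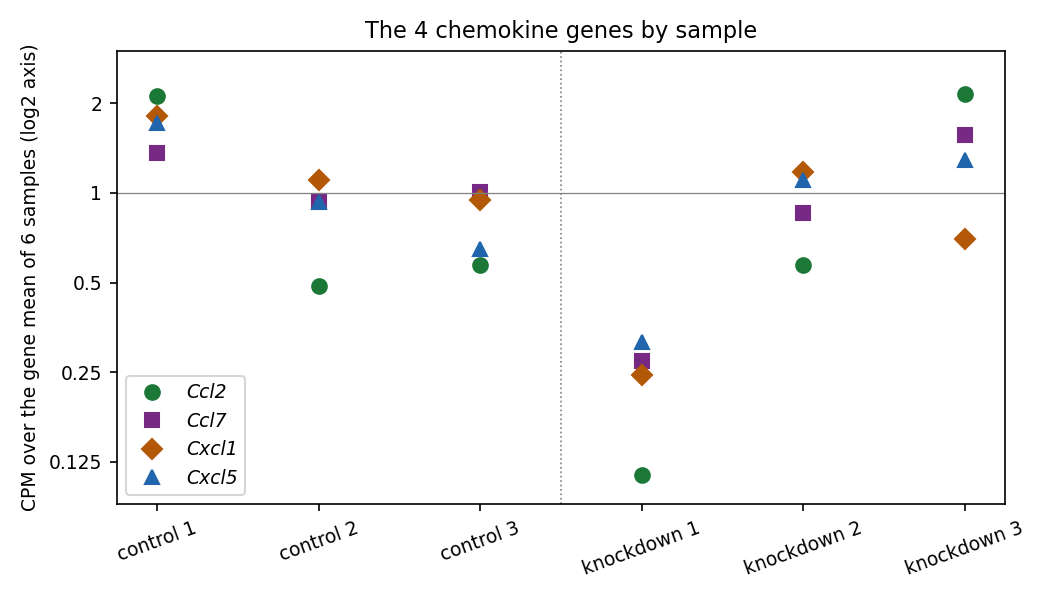
CPM of Ccl2 (circles), Ccl7 (squares), Cxcl1 (diamonds) and Cxcl5 (triangles) divided by the mean of each gene over the 6 samples (vertical axis, log2 scale), for each control and knockdown sample (horizontal axis). All 4 genes are high in control 1 and lowest in knockdown 1, and the range from the lowest to the highest knockdown sample is widest for Ccl2, at 19.0-fold.

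Il6 encodes interleukin 6, the cytokine that drives the acute-phase response of the liver. It had 0 counts in all 3 controls and in knockdown 1, and 3 and 4 counts in knockdown 2 and 3. A count of 3 in a library stands for 0.481, 1.49 and 0.516 CPM in control 1, 2 and 3 and for 0.431, 0.351 and 0.220 CPM in knockdown 1, 2 and 3, so a difference in Il6 was not detectable at this depth and no fold is given. Without the filter on low counts, edgeR gave an adjusted p of 0.660 for Il6. Its transcript was at or near the detection limit in every sample, while Il6st, the signaling receptor subunit gp130, was at 233 to 252 CPM in the controls and 239.8 to 332 CPM in the knockdown samples.

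Nfkbia encodes IkB-alpha, which retains NF-kB in the cytoplasm and is itself induced by NF-kB. Nfkbia was at 39.4, 40.7 and 43.2 CPM in control 1, 2 and 3 and at 29.5, 26.2 and 24.0 CPM in knockdown 1, 2 and 3. The samples of each group were close together and the groups were well apart, with a mean of 41.1 ± 1.91 CPM in control and 26.6 ± 2.75 CPM in knockdown cells (SD, n = 3). The log2 fold change was −0.63 (SE 0.16, 95% interval −0.99 to −0.27), with an unadjusted p of 0.00327 and an adjusted p of 0.145 (edgeR), which misses the threshold. Without knockdown 1 the adjusted p was 0.0653, and over the 18 alternatives it ranged from 0.0653 to 0.609. Hp and Nfkbia were the 2 of the 8 tested genes with an unadjusted p under 0.05 (edgeR), a level that 12.4% of all tested genes reached.

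**Figure D4:**
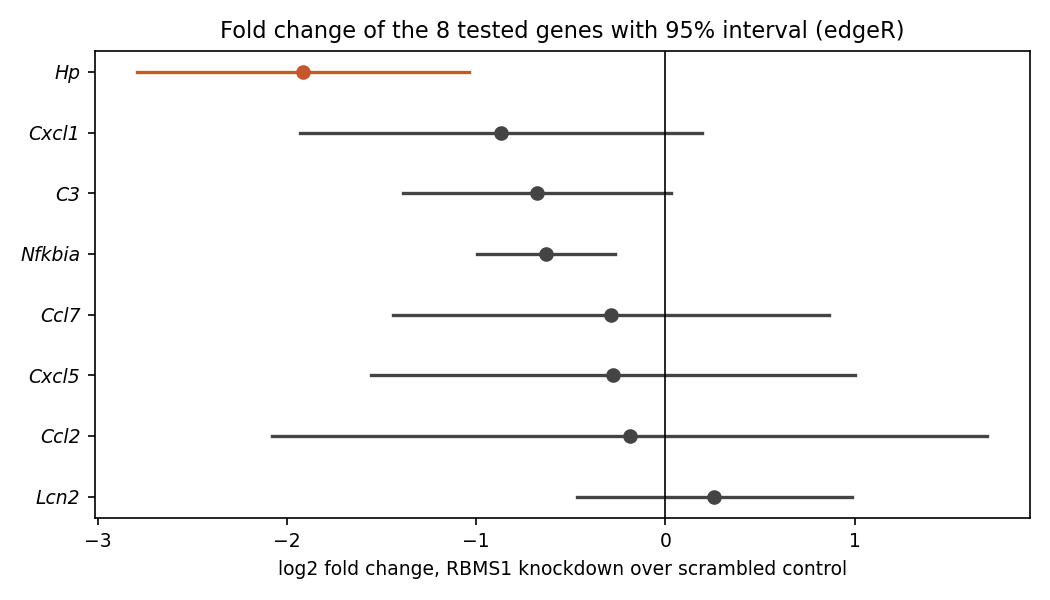
log2 fold change of the 8 tested genes (horizontal axis, RBMS1 knockdown over scrambled control, n = 3 per group) with its 95% interval from edgeR, and Hp, the gene with an adjusted p of 0.1 or less, in orange. The intervals of Hp and Nfkbia lie below 0, and that of Ccl2 is the widest, from −2.08 to 1.70.

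Beside Hp, further acute-phase genes were examined. Of 33 such genes, 12 were tested and all 12 had a log2 fold change below 0, as 49.6% of all tested genes did. Their median was −0.75 against 0.004 over all tested genes. With library size alone 9 of the 12 were below 0, and all 12 were below the median of all tested genes. The number below 0 was 11 with chromosome medians removed, without control 1 or without knockdown 3, and 10 without knockdown 1. None passed the threshold in the main edgeR fit, and 7 had an unadjusted p under 0.05, as did 12.4% of all tested genes. DESeq2 called 1 of them, Cp. With edgeR, Cp was also called with robust estimates (adjusted p 0.0862), with no filter (0.0816) and without knockdown 1 (0.0451). Without knockdown 1, Orm1 was called too (0.0147). Of the 12, only Orm3 was at the filter's level in all controls but not in all knockdown samples. Of the 9 untested genes with any count, 7 had a higher mean in the knockdown samples.

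Cp, which encodes the copper-carrying ferroxidase ceruloplasmin, was at 74.7, 95.8 and 99.96 CPM in control 1, 2 and 3 and at 56.5, 55.6 and 45.6 CPM in knockdown 1, 2 and 3. The groups did not overlap, and the log2 fold change was −0.78 (SE 0.17) with an adjusted p of 0.1003 by edgeR, just above the threshold, and of 0.0173 by DESeq2. Orm1 and Orm3, which encode orosomucoids, had log2 fold changes of −0.76 (SE 0.23) and −1.51 (SE 0.41) with adjusted p of 0.207 and 0.161 (edgeR), and their values also did not overlap between the groups. Orm2 did overlap, at 13.3, 14.9 and 18.6 CPM in the controls and 4.74, 7.48 and 25.7 CPM in the knockdown samples, with the highest value in knockdown 3 (log2 fold change −0.29, adjusted p 0.871, edgeR). The orosomucoid genes are near-identical copies among which reads can be split, so their separate values are uncertain. Ptx3, Itih4 and Serpina3c had log2 fold changes of −1.44, −1.02 and −0.80 and adjusted p of 0.295, 0.300 and 0.303. Mt1 and Mt2, metallothioneins on chromosome 8, were at −0.61 and −0.37.

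The other tested complement genes lay on both sides of 0. Of 29 other complement genes, 12 were tested, 6 had a log2 fold change below 0, the median was 0.03 and none of the 12 was called by edgeR or DESeq2 or had an unadjusted p under 0.05. Cd55, the membrane inhibitor of the C3 convertase, did not pass the filter, and was called by DESeq2 (adjusted p 0.00302) and by edgeR when the filter was left out (0.0279). It had 19, 9 and 6 counts in the controls and 0, 0 and 1 in the knockdown samples, more in each control than in any knockdown library, although the knockdown libraries were deeper. Cfd, the adipocyte protease adipsin that acts in the same pathway as C3, was at 1054 to 1294 CPM in the controls and 593 to 1407 CPM in the knockdown samples (log2 fold change −0.37, SE 0.31, adjusted p 0.676, edgeR). Knockdown 1 held the highest Cfd value of all 6 libraries and knockdown 2 the lowest. C8g was at −1.08 (SE 0.58), and at −0.60 without control 2, and was at the filter's level in all controls only. Cr1l was at 0.20 (SE 0.18).

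Among 33 further chemokines, 4 were tested and none was called by edgeR, while 1, Ccl9, had an unadjusted p under 0.05 and was called by DESeq2 (adjusted p 0.0624). Ccl9, a ligand of CCR1, was at 5.45, 3.97 and 2.06 CPM in the controls and at 4.03, 9.23 and 33.3 CPM in knockdown 1, 2 and 3, with a log2 fold change of 2.03 (SE 0.71) and an adjusted p of 0.273 (edgeR). Without knockdown 3 its log2 fold change was 0.80. As with Ccl2 and Ccl7, knockdown 1 was the lowest and knockdown 3 the highest of its group, and the groups overlapped. Ccl6, which was called by edgeR without the filter (adjusted p 0.0688) and without knockdown 1 (0.00651), had 1 count in each control and 0, 32 and 460 counts in knockdown 1, 2 and 3. Cxcl12, the ligand of CXCR4 and ACKR3, was at 453, 282 and 352 CPM in the controls and at 132, 543 and 749 CPM in the knockdown samples (log2 fold change 0.39, SE 0.49, adjusted p 0.800, edgeR). Cx3cl1, on chromosome 8, was at −0.22 (SE 0.25). Of 22 chemokine receptors 1 was tested, the scavenging receptor Ackr3, at 0.56 (SE 0.37) with an adjusted p of 0.591.

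Of the 11 receptor genes for the products of the 10 genes, 3 were tested and 1 was called lower, against 0.909% of all tested genes. This was Slc22a17, which encodes a cell-surface receptor for lipocalin 2, at 2.24, 2.98 and 3.61 CPM in control 1, 2 and 3 and at 0.144, 0.468 and 0.367 CPM in knockdown 1, 2 and 3. Every knockdown library was below every control, on 14, 6 and 21 counts against 1, 4 and 5. The log2 fold change was −3.05 (SE 0.66) with an adjusted p of 0.0942 (edgeR), which rose to between 0.155 and 0.374 without any single library other than knockdown 1, and was 0.0721 without that library. It was called in 9 of the 18 alternatives, and not under limma-voom, library size alone, the replicate block or removal of chromosome medians. It was at the filter's level in all controls and not in all knockdown samples, so it entered the test through the group where it was higher. For that reason, 1 call among 3 tested genes cannot be read against the share over all tested genes. Il6st was at 0.27 (SE 0.17) and Il6ra, the ligand-binding subunit, at 0.00 (SE 0.25).

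Of 18 other cytokines, 4 were tested, none of these was called by edgeR or DESeq2, and 1, Clcf1, had an unadjusted p under 0.05. Il1rn, the antagonist of the IL-1 receptor, was called by edgeR without the filter (adjusted p 0.0970), on 15, 2 and 7 counts in the controls and 1, 0 and 3 in the knockdown samples. Clcf1, a cytokine of the IL-6 family, was at 6.62 ± 2.75 CPM in control and 13.2 ± 5.52 CPM in knockdown cells (SD, n = 3), with a log2 fold change of 0.996 (SE 0.40) and an adjusted p of 0.351 (edgeR). Ctf1 was at 0.49 (SE 0.32) and Mif at −0.29 (SE 0.32).

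In IL-6 family signaling, 15 of 16 genes were tested, 5 had a log2 fold change below 0, the median was 0.06, none was called by edgeR or DESeq2 and 2 had an unadjusted p under 0.05. These 2, Socs3 and Cebpd, are known to be induced by STAT3. Socs3, the feedback inhibitor of gp130, was at 111, 65.0 and 67.1 CPM in control 1, 2 and 3 and at 6.76, 55.6 and 27.5 CPM in knockdown 1, 2 and 3, with a log2 fold change of −1.44 (SE 0.57) and an adjusted p of 0.346 (edgeR). With 1 library left out its log2 fold change ran from −2.22 without knockdown 2 to −0.96 without knockdown 1. Its groups did not overlap, and control 1 was highest and knockdown 1 lowest of the 6, as for Cxcl1 and Cxcl5. Cebpd was at 55.9, 30.3 and 31.5 CPM in the controls and 14.2, 35.4 and 16.8 CPM in the knockdown samples, with control 1 again highest and knockdown 1 lowest (log2 fold change −0.83, SE 0.36, adjusted p 0.393, edgeR).

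The NF-kB pathway around Nfkbia was well covered, and edgeR called none of its genes. Of 27 receptors and adaptors, 20 were tested, 9 were below 0, the median was 0.11, 2 had an unadjusted p under 0.05 and DESeq2 called 0. Il1rap, the shared subunit of the IL-1 receptor, was at −0.56 (SE 0.20) and Tnfrsf1b, the TNF receptor TNFR2, at 0.53 (SE 0.20), both with groups that did not overlap and adjusted p of 0.284 and 0.303 (edgeR). Tlr3, on chromosome 8, was at −0.57 (SE 0.28).

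Of the 27 kinases, subunits and inhibitors of NF-kB, 26 were tested, 19 were below 0 and the median was −0.16. With library size alone 6 were below 0, and 19 were below the median of all tested genes. In the main fit 2 had an unadjusted p under 0.05 (edgeR), and DESeq2 called 1, Cyld. Cyld, a deubiquitinase that restrains the pathway and lies on chromosome 8, was at 51.8, 66.5 and 66.2 CPM in the controls and 44.6, 35.3 and 33.7 CPM in the knockdown samples, with a log2 fold change of −0.70 (SE 0.18) and an adjusted p of 0.146 (edgeR). Chuk, which encodes the kinase IKK-alpha, was higher in each knockdown library, at 84.0, 77.3 and 64.3 CPM against 51.5, 45.7 and 54.5 CPM (log2 fold change 0.57, SE 0.16, adjusted p 0.176, edgeR). Birc3 was at −0.53 (SE 0.24).

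Of 15 other NF-kB-induced genes, 11 were tested, 5 were below 0, the median was 0.001, 2 had an unadjusted p under 0.05, edgeR called 0 and DESeq2 called 1, Mmp13. Mmp13, collagenase 3, was higher in each knockdown library, at 6.18, 7.48 and 4.33 CPM against 2.40, 0.993 and 1.72 CPM, with a log2 fold change of 1.69 (SE 0.41) and an adjusted p of 0.129 (edgeR). Mmp13 was 1 of 4 genes of this list at the filter's level in all knockdown libraries only, and control 2 held 2 counts of it. Sod2 and Irf1 were at −0.36 (SE 0.16) and −0.34 (SE 0.16), with every knockdown library below every control. Over all of these lists together, 105 of 222 distinct genes were tested and the median was −0.08. Of the 105, 60 (57.1%) were below 0, as were 49.6% of all tested genes. Only 1, Slc22a17, was called by edgeR, which called 1.22% of all tested genes. DESeq2, run without the filter on low counts, called 7 of the list genes, and 3.2% of the 13454 genes it tested. Among the 7 were Slc22a17, Cp, Cyld and Cd55 lower and Ccl9 and Mmp13 higher. Of the 222 genes, 161 had any count.

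**Figure D5:**
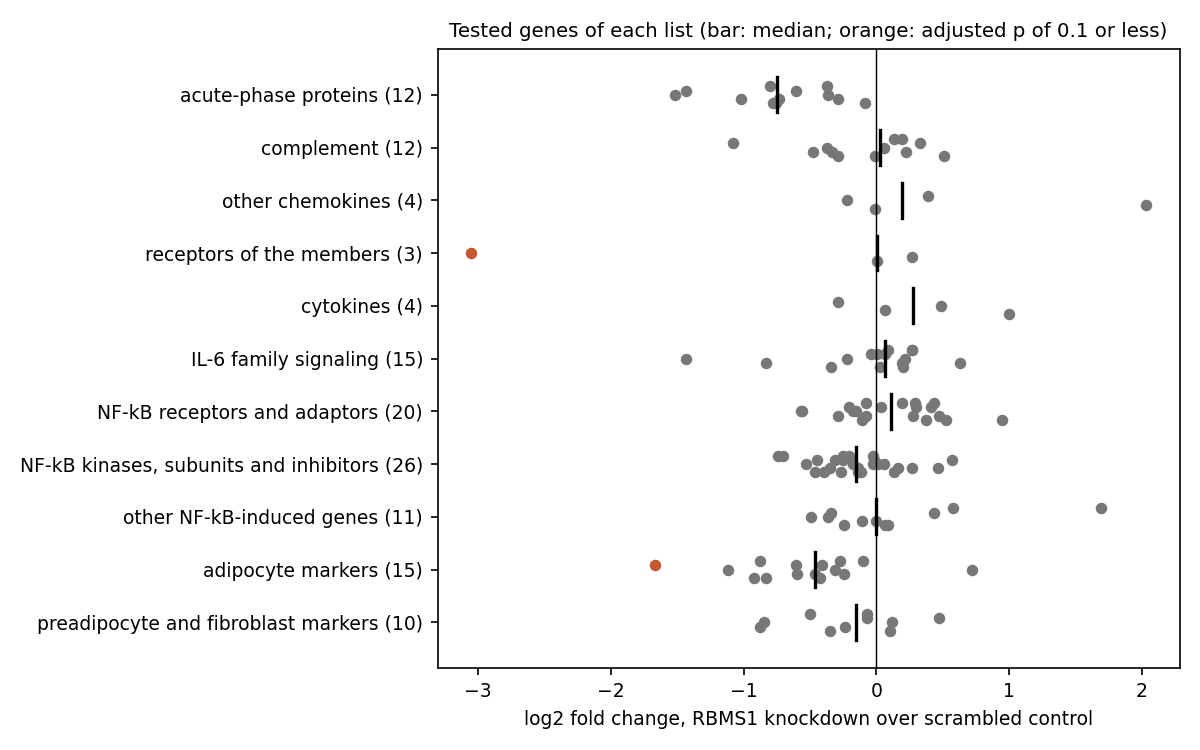
log2 fold change (horizontal axis, RBMS1 knockdown over scrambled control) of each tested gene in 9 pathway lists and 2 marker lists (vertical axis, number tested in parentheses), with black bars for medians and orange for an adjusted p of 0.1 or less (edgeR). The 12 acute-phase genes all lie below 0, with a median of −0.75, while the complement and NF-kB lists lie on both sides of 0.

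Most markers of the fat cell had a log2 fold change below 0, as Hp and C3 did. Of 16 adipocyte markers, 15 were tested and 14 had a log2 fold change below 0, as 49.6% of all tested genes did. The median of the list was −0.46. With library size alone 10 were below 0, and 14 were below the median of all tested genes. In the main fit 1 marker was called, against 1.22% of all tested genes. It was Retn (resistin, on chromosome 8), at −1.67 (SE 0.36) with an adjusted p of 0.0967 (edgeR). Retn was called in 7 of the 18 alternatives, and of those that left out a library only without knockdown 1. DESeq2 called 5 of the markers, Acsl1, Cd36, Fasn, Lpl and Retn, and 3.2% of the 13454 genes it tested. Without knockdown 1, edgeR called 10 markers, and 696 of all 11724 genes tested in that fit. Summed over the list, the adipocyte markers were at 36063 to 39991 CPM in the controls and 16849.5 to 31851 CPM in the knockdown samples. Plin1, the coat protein of lipid droplets, was at −0.43 (SE 0.20), Pparg, the master regulator of adipogenesis, at −0.31 (SE 0.19) and Cebpa, its partner factor, at −0.61 (SE 0.23), with adjusted p of 0.435, 0.554 and 0.319 (edgeR). Lep had too few counts to be tested. The 10 tested preadipocyte and fibroblast markers had a median of −0.15, with Pdgfra at −0.87 (SE 0.23) and Dlk1 at −0.84 (SE 0.36), and the 6 endothelial markers, Pecam1 and Cdh5 among them, summed to at most 2.40 CPM in any library. The part of these markers in the values of Hp, C3 and Nfkbia was not tested.

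Over the 6 samples, the genes whose log2(CPM + 1) ran closest to Hp by Pearson's r were Rab3a (0.995), Eif4g3 (0.994) and Tmem11 (0.994). For C3 they were Dnaja2 (0.996), Phkb (0.992) and Pecr (0.990), and for Nfkbia Gstk1 (0.996), Adrb3 (0.994) and Adam12 (0.993). These are the top values among 11440 genes over 6 points that share the 2 groups, and they are given as a description. Of these 9 genes, Rab3a, Dnaja2, Phkb and Adrb3 lie on chromosome 8.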

How the data were processed

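RNA from 6 differentiated 3T3-L1 cultures, 3 biological replicates per group, had been sequenced with a stranded total RNA kit. Per the labels' processing notes, the authors used Trim Galore 0.6.7, STAR 2.7.10a and Salmon 1.9.0 with GRCm38. The deposited values are estimated counts per gene. The annotation release and the use of strand are not given in the sources used here. Estimated counts were rounded to whole numbers. Genes were filtered with filterByExpr and tested with edgeR 4.0.16 (R 4.3.3), using TMM scaling, the newer quasi-likelihood estimates (legacy=FALSE) and Benjamini-Hochberg adjustment over 11440 genes, and called at an adjusted p of 0.1 or less. Tests were checked on simulated data. The 3-count floor was 0.220 to 1.49 CPM per library, and intervals on summed counts cover counting error only. Positions and exon lengths came from GENCODE M21, which matched 45143 of 45706 rows.

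Alternatives were DESeq2 1.42.0, limma-voom (limma 3.58.1), other scalings and filters, unrounded counts, removal of chromosome medians, the replicate number as a block and each sample left out. The earlier and the robust quasi-likelihood estimates were added after seeing the data. Members and lists were chosen with earlier results of these data known. Genes named were the 10 members, Rbms1, the called genes of each pathway list or its smallest p up to 3 genes, defining markers, and the 3 genes most like the called member and the 3 most abundant members. Ptx3, Itih4, Serpina3c, Mt1, Mt2, Orm2, Saa1, Saa2, Saa4, Retn, Acsl1, Cd36, Fasn, Lpl, Cd55, Ccl6 and Il1rn were named after their values were seen. The result for 1 complement gene is not reported here.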

Additional observations from a re-analysis of the deposited data

How the results depend on the processing

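Hp kept its direction under all 18 alternatives, and so did C3, Nfkbia and Cxcl1. The call for Hp was lost in 8 alternatives. Of the 10 genes, 1 was called as reported, 2 with DESeq2, 0 with robust estimates, 0 with chromosome medians removed, and 0 to 2 with 1 library left out. Over all genes, 140 were called as reported, 430 with DESeq2, 126 with library size alone, 268 with no filter on low counts, 73 with chromosome medians removed, and 12 to 696 with 1 library left out, the highest without knockdown 1. Of the pathway lists, 1 gene was called as reported, 7 with DESeq2 (Cd55 among them, which the filter removes from edgeR's test), 0 with limma-voom, 2 with library size alone (Ccl9 and Mmp13, with Slc22a17 lost), 6 with no filter, 3 with a filter of 1 CPM in 3 samples, 2 with robust estimates, 0 with chromosome medians removed, and 0 to 14 with 1 library left out, the highest again without knockdown 1. Knockdown 1 held the lowest Rbms1 value of the 6 libraries, at 49.2 CPM. The cause of these shifts was not tested.

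Under library size alone, the log2 fold changes of all tested genes had a median of 0.37. Below that median but above 0 were then Ccl2 (0.14), Ccl7 (0.081), Cxcl5 (0.057), Adipoq (0.14), Cx3cl1 (0.16), Irf1 (0.055), Mif (0.064), Pparg (0.080) and Sod2 (0.018). Of the 12 acute-phase genes, 9 were below 0 and all 12 were below that median. With chromosome medians removed, Cr1l was at −0.046 and Cx3cl1 at 0.17. With 1 library left out, the log2 fold change ranged from −1.65 (without knockdown 3) to 0.86 (without control 1) for Ccl2, −0.96 (without knockdown 3) to 0.14 (without knockdown 1) for Ccl7, −0.63 (without knockdown 3) to 0.29 (without control 1) for Cxcl5 and −0.034 to 0.52 for Lcn2, and from −0.45 to 0.068 for Adipoq, −0.099 to 0.84 for Cxcl12, −0.17 to 0.17 for Il6ra and −0.69 to 0.035 for Mif.

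Same-numbered samples were not treated as pairs in the main test, and the labels give only replicate numbers. Their deviations from the group means correlated at −0.14, 0.08 and −0.03, too few values to settle whether they were paired. With the replicate block, 0 of the 10 genes, 39 of all genes and 0 pathway genes were called, Hp had an adjusted p of 0.126 and Il6ra was at −0.0041. Saa3 and Il6 were tested only without the filter on low counts and with DESeq2. Saa3 was called in neither. Il6 was not called without the filter, and DESeq2 gave it no adjusted p.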
